A study of Mus musculus with 2 samples.

Results

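The cells described here were cells of the mouse cortex that were selected for Gad1, Gad2 and Adarb2, on 5 genes in all, in droplet single-cell RNA counts. A barcode was taken as a member when it held at least 2 unique molecular identifiers (UMIs, each a count of 1 captured RNA molecule) of Gad1 and Gad2 together, at least 3 of Adarb2, 0 of Lhx6 and at most 1 of Slc17a7. These members were chosen by measured counts of Gad1, Gad2, Adarb2, Lhx6 and Slc17a7, so levels of those genes are descriptions and support nothing. The rule took 455 members, 198 from the control library and 257 from the injured library, out of 17653 barcodes that passed the cell filter and 18642 barcodes in all.

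Interneurons of caudal origin are inhibitory cells that arise in the caudal ganglionic eminence of the embryo and migrate into the cortex, where they keep the transcription factors Prox1 and Nr2f2. They include the Vip cells, which mainly inhibit other interneurons, the Lamp5 cells of the upper layers, which include neurogliaform cells, and the Cck basket cells, which carry the cannabinoid receptor Cnr1. The parvalbumin and somatostatin interneurons come instead from the medial ganglionic eminence and express Lhx6. Adarb2 encodes an RNA-binding relative of the RNA-editing enzymes that has no known editing activity and is widely used as a marker of the caudal group.

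The study modelled preterm white matter injury (WMI) in C57BL/6 mice aged 2 weeks. Per the labels, the right common carotid artery was ligated on postnatal day 7 with 1 h of hypoxia, and the ligated-side cortex of the WMI group and the same-side cortex of the control group were taken on postnatal day 14. The labels state no surgery for the control group, but the sample annotation used here lists postnatal day 7 and 1 h of hypoxia for both groups. What the control animals underwent is therefore not clear. The study's methods give an earlier age, a longer hypoxia and enzymatically dissociated cells where the labels name nuclei. Its results describe cells from the control and WMI sides of the cortex, from mice younger than the labels give, and a figure legend names sham hemispheres. The study's methods describe several replicates per group, which the labels and the deposited matrices do not tie to barcodes. Each group had 1 library. The spread between animals is therefore unknown, nothing was tested, and every interval below is a 95% interval for counting error only.

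The control library held 10288 barcodes with 66470806 UMIs and the WMI library 8354 barcodes with 60568639 UMIs. Kept barcodes had a median of 4727.5 UMIs in the control sample and 5267 in the WMI sample. The libraries stood apart over all kept barcodes and in the members. Xist, the RNA made from the inactive X chromosome of female cells, had a UMI in 0.0524% of kept control barcodes and in 64.3% of kept WMI barcodes. Of the members, 0 of 198 in the control sample and 66.5% in the WMI sample held an Xist UMI, and the Y-linked gene Ddx3y had a UMI in 24.2% and 13.2%. The labels do not give sex, a cell can lack an Xist UMI for want of depth, and sex and injury cannot be told apart here, so values without the Xist-holding cells are given only as a description. The median share of mitochondrial UMIs was 0.0628% in the control sample and 0.458% in the WMI sample. The libraries shared 36 barcode sequences, and 1 member of each library carried such a sequence, though never the same one.

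The members were not a single cell type. Adarb2 itself, on chr13:8202866-8768747 (plus strand, GRCm38), ran from 3 to 710 UMIs per member in the control sample with a median of 35, and from 3 to 1186 in the WMI sample with a median of 28. In the control library 57 members held 3 to 5 Adarb2 UMIs, 24 held 6 to 19 and 117 held at least 20, and the WMI counts were 46, 63 and 148. The low end of that range overlapped cells of another kind. Excitatory reference neurons, taken as barcodes with at least 3 Slc17a7 UMIs and no Gad1 or Gad2, held at least 3 Adarb2 UMIs in 25.5% of cells in both libraries, at a median depth of 10314 UMIs in the control and 11239 in the WMI sample against 7286.5 and 6794 in the members. Just inside the threshold, 30 control and 22 WMI members had 3 Adarb2 UMIs, and just outside it 58 and 41 GABAergic barcodes without Lhx6 had 2. No barcode below the cell filter met the gene rule.

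Clustering of the members gave 9 clusters, and the genes of the rule and the functional gene lists used below (transcription factors, peptides, receptors, channels, adhesion genes) were left out of it. The 3 with the highest Adarb2 medians are called the interneuron clusters from here on. They were picked after the values were seen, and their cells overlapped those of other clusters in Adarb2. Cluster 1 (83 cells, median 59 Adarb2 UMIs) carried 7 of 9 Lamp5 markers and was Lamp5-like, led by the phosphodiesterase gene Pde11a and by Ndnf. Cluster 2 (82 cells, median 131.5) carried 7 of 8 Vip markers and was Vip-like, led by the gastrin-releasing peptide receptor Grpr, Vip and the stress peptide Crh. Cluster 5 (48 cells, median 233) was led by Gm43210 and the collagen genes Col14a1 and Col25a1 and held only 2 of the 6 Sncg-type markers, Cck and Cnr1, so it was left unnamed.

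The other 6 clusters held 242 of the members, and their leading genes went against the label for many of them. Cluster 3 (70 cells) was led by Draxin, 2610307P16Rik and Edar and carried 6 of 6 Meis2-type and 5 of 6 neuroblast markers, with Igfbpl1 among its leading genes, and stayed unnamed. Cluster 4 (52 cells) was excitatory neuron-like, with Rorb among its leading genes and a median of 4 Adarb2 UMIs. Cluster 6 (38 cells) was Lhx6 interneuron-like, with Sox6, Satb1, Sst and Nxph1 among its markers, although the rule had taken barcodes with no Lhx6 UMI. Cluster 7 (29 cells) was like oligodendrocyte precursors, with all 5 of their markers. Cluster 8 (27 cells) held all 6 microglia and all 6 astrocyte markers and was left unnamed, and 9 of its cells were predicted doublets. Cluster 9 (26 cells) was led by Ebf1, Ccdc187 and Six3, carried 4 of 7 striatal and 4 of 6 Meis2-type markers, and came from 1 control and 25 WMI barcodes.

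**Figure D1:**
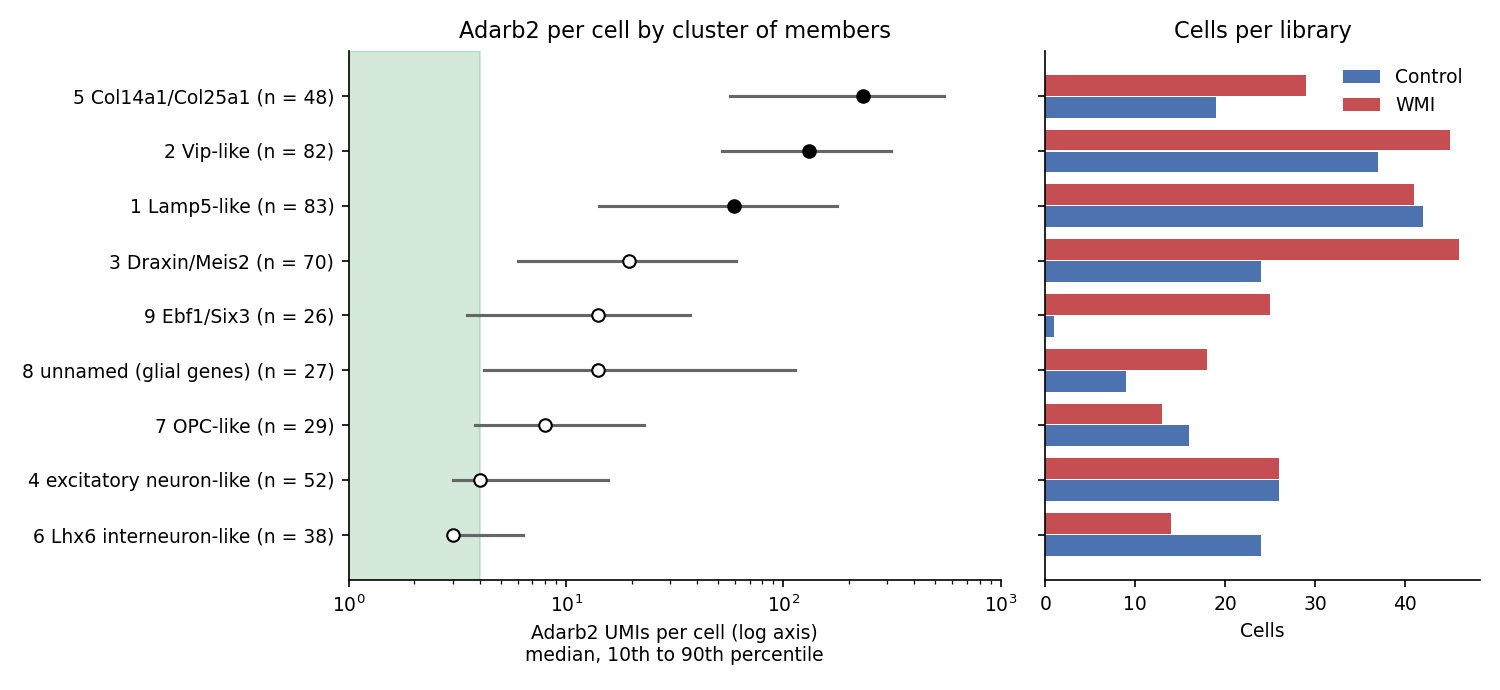
Left, Adarb2 UMIs per cell in each of the 9 clusters of members (log axis), as the median (circle) and the 10th to 90th percentile (line), with filled circles for the interneuron clusters and a green band up to the 90th percentile of excitatory reference neurons (4 UMIs). Right, cells of each cluster from each library. Clusters 5, 2 and 1 lie well above the band, clusters 4, 6, 7 and 9 overlap it, and cluster 9 holds 25 WMI cells and 1 control cell.

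Most results below are given for the 213 members in the interneuron clusters, 98 from the control and 115 from the WMI library. They made up 49.5% of the control members (42.3% to 56.7%, exact binomial) and 44.7% of the WMI members (38.6% to 51.0%). Their depth was similar in both libraries, with a median of 8185.5 and 8261 UMIs per cell, and 6 control and 4 WMI cells among them were predicted doublets.

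**Figure D2:**
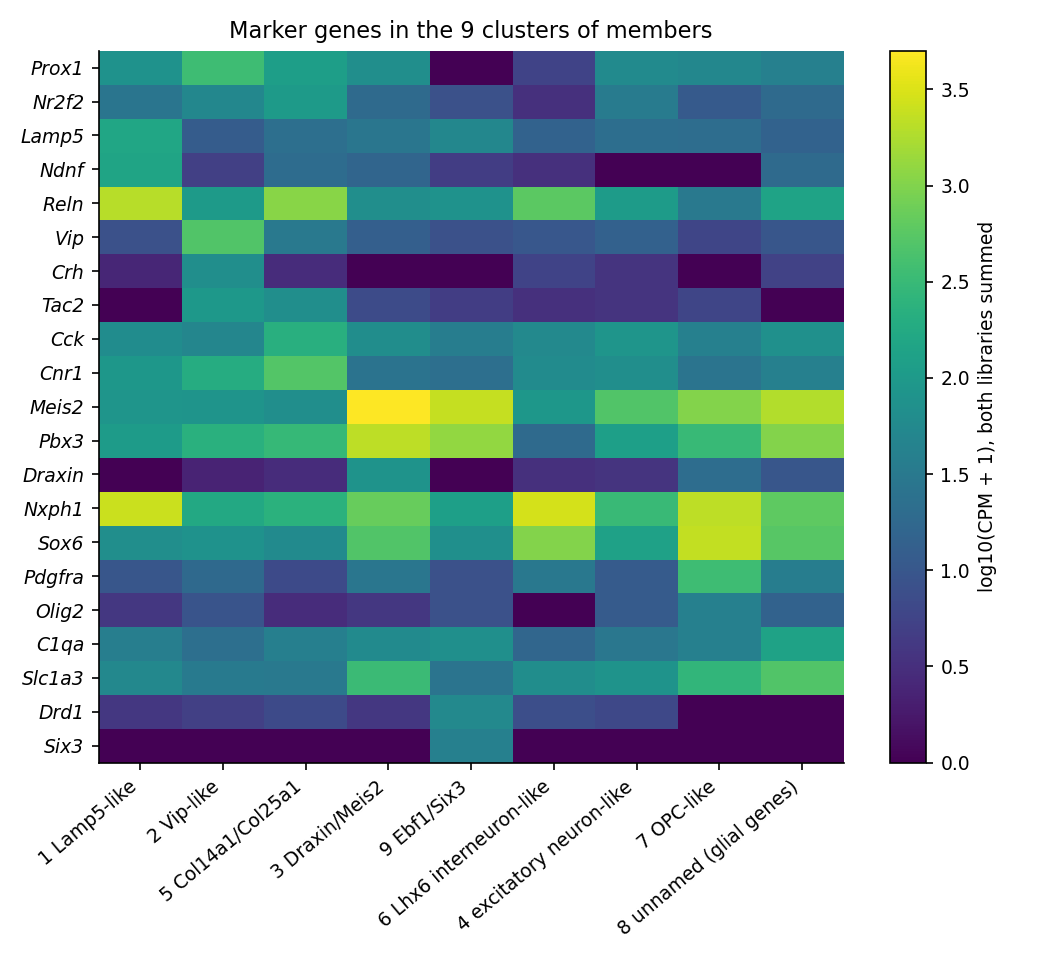
Level of 21 marker genes (rows) in each cluster of members (columns), as log10 of CPM plus 1 (CPM being UMIs of a gene per 1000000 summed UMIs) with both libraries summed. Vip and Crh are brightest in cluster 2, Ndnf and Lamp5 in cluster 1, Cck and Cnr1 in cluster 5, Meis2 and Pbx3 in cluster 3, Pdgfra in cluster 7 and Six3 in cluster 9.

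Prox1, the caudal transcription factor that the rule did not use, separated these cells from Lhx6 interneurons and excitatory reference neurons in both libraries. Levels here and below are CPM, the UMIs of a gene per 1000000 UMIs summed over the cells of a group. In the interneuron clusters Prox1 stood at 191 CPM in the control sample and 201 CPM in the WMI sample. In Lhx6 interneurons, 41 control and 16 WMI barcodes with at least 2 Lhx6 and at most 2 Adarb2 UMIs, it stood at 4.13 CPM and was not detected in the WMI sample, and in excitatory reference neurons at 4.44 and 9.56 CPM. The ratio to Lhx6 interneurons was 46.3-fold in the control sample (log2 5.53, interval 3.66 to 8.59) and at least 16.9-fold in the WMI sample, taking 3 counts for a count of 0. Over all 455 members the same log2 ratio was 4.81 in the control sample (2.94 to 7.87) and at least 3.31 in the WMI sample.

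Of 3048 genes with enough counts, 4.76% were at least 2-fold higher in the interneuron clusters than in Lhx6 interneurons in both libraries and 1.48% were at least 2-fold lower in both. Genes entered with at least 100 UMIs in the interneuron clusters, so genes low there and high in the other group could not be counted, and nothing is read from the split between higher and lower. Adarb2 was used to choose the cells and led the order. After Adarb2 the highest ratios belonged to 2 unannotated transcripts inside the Adarb2 gene on the same strand, Gm48259 and Gm48261, whose reads cannot be told apart from those of Adarb2. The receptor tyrosine kinase gene Kit came next, at 283 and 172 CPM in the control and WMI interneuron clusters against 8.26 and 7.94 CPM in Lhx6 interneurons. Vip stood at 147 and 239 CPM against 6.20 CPM and no UMI. The Kit and Vip levels in Lhx6 interneurons rested on few UMIs, since those cells summed to 484201 UMIs in the control and 251767 in the WMI sample. Several receptor genes were among the leading 15: the growth factor receptor Egfr (log2 5.49 and 3.85), the sorting receptor Sorcs3 (3.71 and 3.95) and Cnr1 (3.07 and 3.73). The adrenergic receptor Adra1b rested on 3 and 1 UMIs in Lhx6 interneurons, with intervals of log2 2.66 to 6.55 and 2.69 to 10.51, and the orexin receptor Hcrtr2 on 6 and 1 UMIs, with intervals of 1.79 to 4.46 and 2.34 to 10.16. Frem1, Sv2c, Sema5b and the chemokine Cxcl14 completed them.

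Among the caudal markers fixed for this work, 3 of 7 with enough counts were at least 2-fold higher than in Lhx6 interneurons in both libraries, namely Adarb2, which chose the cells, Prox1 and Nr2f2. For Nr2f2 the control ratio was at least 10.5-fold and the WMI ratio was 2.47-fold with an interval that reached log2 -0.01. Erbb4, the neuregulin receptor that both interneuron lineages use, stood at 7434 CPM in the control and 9654 CPM in the WMI interneuron clusters against 7687 and 10101 CPM in Lhx6 interneurons, a difference of less than 5% in each library. In the opposite direction, Sox6, a transcription factor of the medial lineage, stood at 61.9 and 73.6 CPM against 1059 and 1001 CPM. The secreted ligand Nxph1 was lower in the interneuron clusters by a log2 of 1.40 in the control and 2.23 in the WMI sample. This was uneven between the clusters, since cluster 1 stood at 2572.5 and 2457 CPM against 3135 and 4043 CPM in Lhx6 interneurons. Cluster 2 stood at 229 and 124 CPM and cluster 5 at 314 and 186 CPM.

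Most ion channel and receptor genes were less than 2-fold apart from Lhx6 interneurons in at least 1 library, and the lists are read beside the 4.76% higher and 1.48% lower over all genes. The fast-spiking potassium channel gene Kcnc2 was 622 and 784 CPM in the interneuron clusters against 3757 and 5048 CPM in Lhx6 interneurons. It was the only 1 of 18 tested potassium and HCN channel genes to be at least 2-fold lower in both libraries, while Kcnn2, Kcnq5 and Kcnt2 were at least 2-fold higher. The AMPA receptor gene Gria1 and the kainate receptor gene Grik3 were lower, and Grik4 was higher, among 16 tested ionotropic glutamate receptor genes. The nicotinic receptor gene Chrna7 stood at 301 and 248 CPM against 45.4 and 55.6 CPM. Of 10 GABA-A receptor subunit genes only Gabra5 was at least 2-fold apart in both libraries, at 74.5 and 69.9 CPM against 33.0 and 27.8 CPM.

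Against excitatory reference neurons, 6.4% of 3048 genes were at least 2-fold higher in both libraries and 2.62% were lower, under the same filter on UMIs in the interneuron clusters. All 7 tested caudal markers were among the higher genes, and 3 of them, Adarb2, Gad1 and Gad2, were used to choose the cells or the reference. Of the other 4, Erbb4 was 17.9-fold and 31.2-fold higher, Npas1 17.9-fold and 40.5-fold, Prox1 by a log2 of 5.43 and 4.39, and Nr2f2 12.3-fold and 2.87-fold, in the control and WMI libraries. The kainate receptor gene Grik1 was 11.5-fold and 10.2-fold higher, and the potassium channel subunit gene Kcnmb2 14.1-fold and 9.45-fold. Nrg1, which encodes a ligand of the Erbb4 receptor, was lower by a log2 of 1.28 and 1.36.

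**Figure D3:**
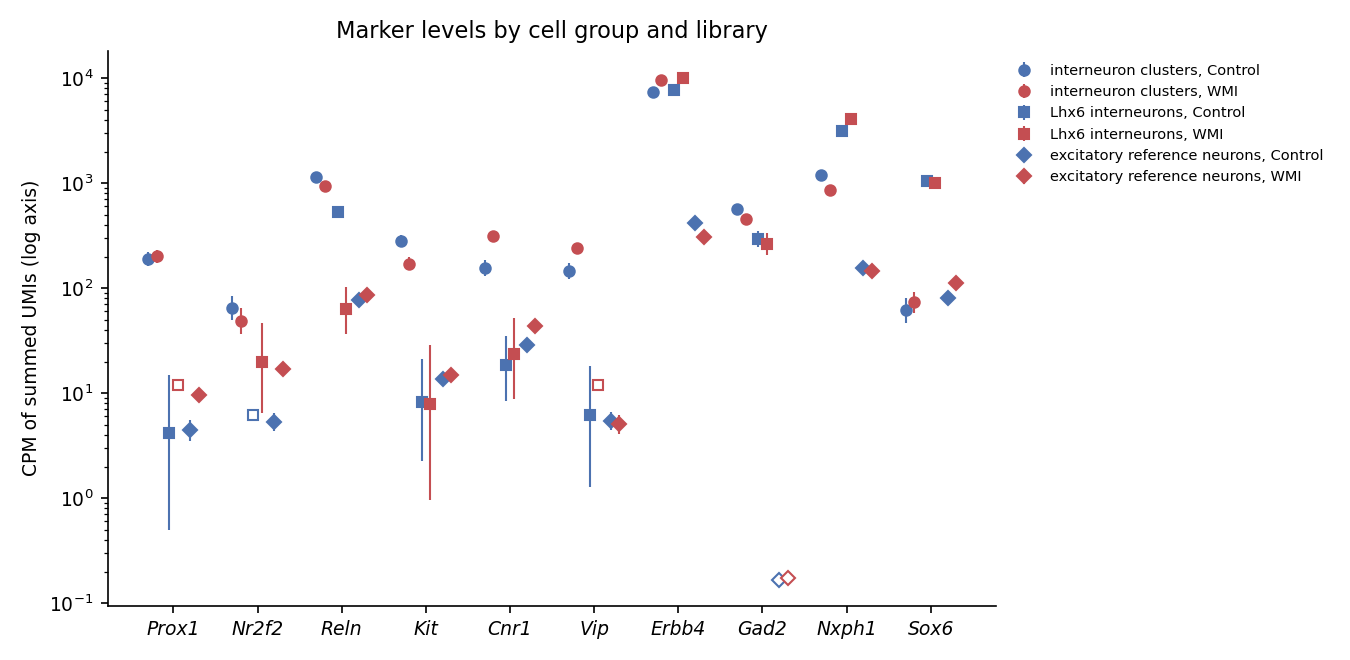
CPM of summed UMIs (log axis) for 10 genes in the interneuron clusters (circles), Lhx6 interneurons (squares) and excitatory reference neurons (diamonds), with control in blue, WMI in red and 95% counting intervals as bars. Open symbols mark a count of 0, drawn at the level of 3 counts. Prox1, Kit, Cnr1 and Vip are higher in the interneuron clusters than in the other groups in both libraries, Nxph1 and Sox6 are highest in Lhx6 interneurons, and Erbb4 is alike in the interneuron groups.

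Between the 3 interneuron clusters, 17% of 3049 genes differed at least 2-fold between the highest and lowest cluster, with a median of 1.40-fold. The neuropeptide and related ligand genes were further apart, since 5 of 5 tested were past 2-fold with a median of 14.7-fold, and these genes had not been used for the clustering. Vip, the vasoactive intestinal peptide, stood at 358 CPM in the control and 595 CPM in the WMI cells of cluster 2, against 11.5 and 3.07 CPM in cluster 1. Npy, the neuropeptide of neurogliaform cells, stood at 209 and 273 CPM in cluster 1 against 48.1 and 17.3 CPM in cluster 2. Cck, cholecystokinin, stood at 99.4 and 286 CPM in cluster 5 against 42.1 and 54.4 CPM in cluster 2. Over all kept barcodes Cck stood at 76.0 and 106 CPM, and in excitatory reference neurons at 61.4 and 99.1 CPM. Cluster 5 was thus past 2-fold over these groups in the WMI library only, and cluster 2 was below both. The tachykinin gene Tac2 had 18 and 50 UMIs in cluster 2, 11 and 24 in cluster 5 and none in cluster 1. At 54.1 and 124 CPM in cluster 2 and 57.5 and 73.1 CPM in cluster 5, its leading cluster differed between the libraries.

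The stretch before the start site of these 3 peptide genes, 1 for each cluster, is shown because the cyclic AMP response element, whose core is TGACG, was first described in genes of this kind. The windows are the 250 bases before the start in RefSeq on GRCm38.p6, read 5′ to 3′ on the gene's strand, with capitals where TGACG or its complement CGTCA occurs. Each of the 3 symbols matched 1 entry. The Vip window is chr10:5638968-5639217 (plus strand), the Cck window chr9:121495695-121495944 (minus strand) and the Npy window chr6:49822460-49822709 (plus strand).
Vip: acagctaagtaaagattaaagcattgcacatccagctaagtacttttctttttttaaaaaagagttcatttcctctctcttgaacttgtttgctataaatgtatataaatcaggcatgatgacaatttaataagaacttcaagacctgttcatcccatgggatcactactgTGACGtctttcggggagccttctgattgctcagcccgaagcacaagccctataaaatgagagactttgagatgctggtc
Cck: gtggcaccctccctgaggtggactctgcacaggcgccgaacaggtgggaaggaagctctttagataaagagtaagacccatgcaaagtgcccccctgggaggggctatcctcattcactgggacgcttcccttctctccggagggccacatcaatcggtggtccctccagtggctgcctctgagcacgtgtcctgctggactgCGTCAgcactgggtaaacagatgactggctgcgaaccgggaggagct
Npy: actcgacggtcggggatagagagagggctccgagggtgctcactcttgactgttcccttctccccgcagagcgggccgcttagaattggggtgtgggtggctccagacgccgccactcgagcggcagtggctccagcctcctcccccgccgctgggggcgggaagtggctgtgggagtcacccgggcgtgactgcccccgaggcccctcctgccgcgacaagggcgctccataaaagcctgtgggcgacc
Vip held 1 match that began 79 bases before the start, Cck held 1 match 47 bases before it, and Npy held none in this window. Of 32851 promoter windows of that length, 17.8% held the motif on either strand. A match is a run of letters and was not tied to any level here.

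Interneuron transcription factor genes also differed between the clusters, with 6 of 10 past 2-fold, a median of 4.29-fold, and the same leading cluster in both libraries for all 6. Prox1 was highest in cluster 2, at 346 and 373 CPM against 94.5 and 58.3 CPM in cluster 1. Tox3 and Bcl11b were highest in cluster 1, where Tox3 stood at 407 and 497 CPM against 41.8 and 9.13 CPM in cluster 5. Npas1, Npas3 and Nr2f2 were highest in cluster 5, where Npas1 stood at 146 and 180 CPM against 14.3 and 6.14 CPM in cluster 1. The 3 clusters thus differed in the levels of these factors.

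Receptor and adhesion genes varied by list. All 5 tested serotonin and acetylcholine receptor genes were past 2-fold, but only 2 had the same leading cluster in both libraries, Htr1f in cluster 1 (424 and 264 CPM) and Htr4 in cluster 2 (156 and 136 CPM). The postsynaptic adhesion gene Elfn1, which shapes the inputs onto some interneurons, stood at 286 and 173 CPM in cluster 2 against 11.5 and 12.3 CPM in cluster 1. Of the synaptic adhesion genes 8 of 17 were past 2-fold. Glutamate receptor genes, with 4 of 16 past 2-fold and a median of 1.51-fold, and sodium and calcium channel genes, with 3 of 12 and 1.45-fold, were near the 17% and 1.40-fold of all genes. GABA-A receptor genes had 5 of 10 past 2-fold with a median of 2.00-fold, led by Gabrb2, and potassium and HCN channel genes 7 of 18 with a median of 1.55-fold and the same leading cluster in both libraries for 4 of the 7. Among the glutamate receptor and calcium channel genes, the NMDA receptor gene Grin2a was 4.67-fold and the calcium channel subunit gene Cacna2d1 4.06-fold higher in cluster 1 than in cluster 5. Gad1 and Gad2, the genes that make GABA, were both highest in cluster 1, by 2.78-fold and 2.83-fold over the lowest cluster.

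The first comparison between the libraries was the share of members. Members were 2.08% of kept control barcodes (1.80% to 2.38%) and 3.17% of kept WMI barcodes (2.80% to 3.57%), a difference of 1.09 points (0.612 to 1.58). Of GABAergic barcodes, those with at least 2 Gad1 and Gad2 and at most 1 Slc17a7 UMIs, members were 37.6% in the control sample (33.4% to 41.9%) and 57.1% in the WMI sample (52.4% to 61.7%), and the interneuron clusters 18.6% (15.4% to 22.2%) and 25.6% (21.6% to 29.8%). The interneuron clusters made up 1.03% of kept control barcodes (0.835% to 1.25%) and 1.42% of kept WMI barcodes (1.17% to 1.70%), a difference of 0.390 points (0.0582 to 0.731). After each barcode was thinned to 3000 UMIs before the rule was applied, members differed by 0.448 points, with an interval from -0.0516 to 0.955.

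Clusters 3, 8 and 9 held more of the WMI than of the control barcodes. Cluster 3 was 0.252% of kept control barcodes (0.161% to 0.374%) and 0.567% of kept WMI barcodes (0.415% to 0.756%). Cluster 9 was 0.0105% (0.000265% to 0.0584%) and 0.308% (0.199% to 0.455%). Cluster 8 was 0.0943% and 0.222%, a difference of 0.128 points (0.00372 to 0.266). The shares of the interneuron clusters among each other differed by less than counting error. Cluster 1 was 42.9% of them in the control sample (32.9% to 53.2%) and 35.7% in the WMI sample (26.9% to 45.1%), cluster 2 was 37.8% (28.2% to 48.1%) and 39.1% (30.2% to 48.7%), and cluster 5 was 19.4% (12.1% to 28.6%) and 25.2% (17.6% to 34.2%). Vip-like cells were 18.7% of all control members and 17.5% of all WMI members.

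Expression in the interneuron clusters was close between the libraries for most genes. Of 3049 genes with at least 100 UMIs, 1.44% were at least 2-fold higher in the WMI sample and 0.328% at least 2-fold lower, with a median log2 ratio of -0.03. Without the cells that held an Xist UMI, 23 genes were higher and 19 lower of 2009 tested, against 44 and 10 of 3049 with them. Leaving those cells out took 58.5% of the WMI cells from cluster 1, 64.4% from cluster 2 and 69.0% from cluster 5, but no control cells. Far fewer WMI than control cells thus remained, and the shares of the clusters among them shifted. Over all members 1.68% of 5424 genes were higher and 0.59% lower. The counting interval left out 0 for 23.0% of the genes in the interneuron clusters, and how much of that is variation between mice cannot be told from 1 library per group.

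**Figure D4:**
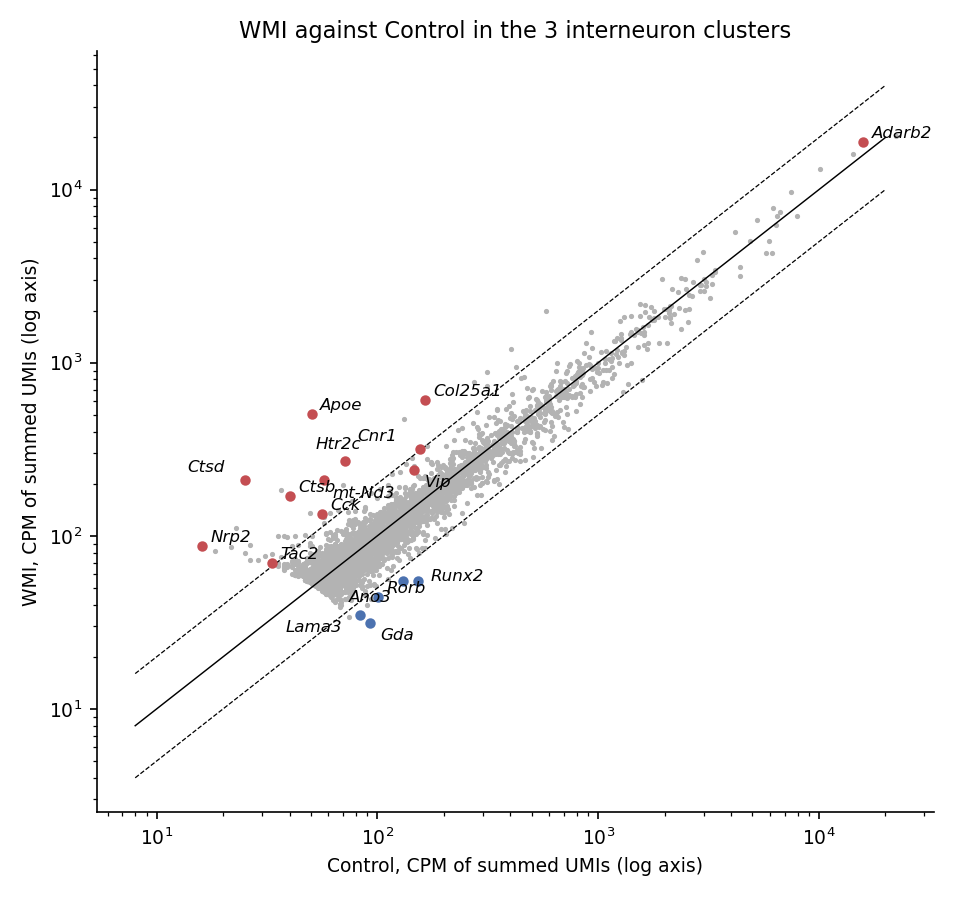
CPM of summed UMIs in the interneuron clusters of the control library (x, log axis) and the WMI library (y, log axis) for genes with at least 100 UMIs and a count in both. The solid line marks equal levels and the dashed lines 2-fold differences. Apoe, Ctsd, Nrp2, Htr2c and Col25a1 lie above the upper dashed line, Runx2, Gda and Lama3 below the lower one, and Adarb2 and Vip between the lines.

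The vesicular GABA transporter gene Slc32a1, which loads GABA into synaptic vesicles, was the caudal list member that differed most. It had 14 UMIs (16.0 CPM) in the control and 69 UMIs (65.1 CPM) in the WMI interneuron clusters, a log2 ratio of 2.02 (1.18 to 2.97), on fewer than the 100 UMIs set for the counts above. Cells with a Slc32a1 UMI were 14 of 98 in the control sample and 45 of 115 in the WMI sample, against 3.51% and 3.66% of excitatory reference neurons. WMI was higher in each of clusters 1, 2 and 5, with log2 intervals of 0.47 to 3.44, 0.60 to 3.25 and 0.81 to 8.84, the last from 1 control UMI. Lhx6 interneurons had the same direction, at 12.4 and 75.5 CPM (log2 2.61, 1.23 to 4.22), while excitatory reference neurons stood at 3.35 and 2.80 CPM (log2 -0.26, -0.83 to 0.31). Over all members the log2 ratio was 1.73 (1.13 to 2.38), and without the cells that held an Xist UMI it was 2.27 (1.29 to 3.30) in the interneuron clusters.

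Gad1 and Gad2, which make GABA, were used to choose the cells and are given as a description. Gad1 stood at 343 CPM in the control and 309 CPM in the WMI interneuron clusters, and Gad2 at 566 and 454 CPM, with log2 ratios of -0.15 (-0.38 to 0.08) and -0.32 (-0.50 to -0.13). Prox1 had a log2 ratio of 0.07 (-0.23 to 0.37).

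Neuropeptide genes were higher in the WMI sample in 2 of 5 tested cases by the 2-fold mark, beside 1.44% of all tested genes. Cck stood at 56.1 and 134 CPM in the interneuron clusters (log2 1.26, 0.78 to 1.76), and within cluster 5 at 99.4 and 286 CPM. Tac2 stood at 33.2 and 69.9 CPM (log2 1.07, 0.43 to 1.74). Vip stayed under the mark, at 358 and 595 CPM in cluster 2 (log2 0.73, 0.41 to 1.06), and over the interneuron clusters without the cells that held Xist its log2 ratio was 0.41 (-0.02 to 0.84). Npy had a log2 ratio of 0.01 (-0.39 to 0.43), and Nxph1 went the other way at -0.46 (-0.59 to -0.33). Without the cells that held Xist, Npy had 0.70 (0.22 to 1.18) and Nxph1 0.05 (-0.11 to 0.21). That step also shifted the shares of the clusters among the WMI cells, and its part in these 2 values was not tested. Over all members Npy had 0.71 (0.37 to 1.05) and Nxph1 -0.58 (-0.67 to -0.49). Within cluster 1 Npy had 0.38 (-0.08 to 0.85) and Nxph1 -0.07 (-0.21 to 0.07). In excitatory reference neurons Cck had a log2 ratio of 0.69 (0.58 to 0.80), whereas Vip had -0.11 and Tac2 -0.28 on levels under 6 CPM. Cnr1, the receptor of the Cck cells, was 156 and 316 CPM in the interneuron clusters (log2 1.02). Without the cells that held Xist its log2 ratio was 0.62 (0.22 to 1.02). It was under 2-fold within each cluster, at 68.8 and 114 CPM in cluster 1, 141 and 237 CPM in cluster 2 and 340 and 615 CPM in cluster 5.

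Among receptors and surface genes, the serotonin receptor gene Htr2c had 62 UMIs (71.0 CPM) in the control and 286 UMIs (270 CPM) in the WMI interneuron clusters, a log2 ratio of 1.93 (1.53 to 2.35). The ratio was highest in cluster 5, at 78.4 and 502 CPM (log2 2.68). The transmembrane collagen gene Col25a1 stood at 165 and 606 CPM, a log2 ratio of 1.88 (1.61 to 2.15), and Nrp2, a semaphorin and VEGF co-receptor gene, at 16.0 and 86.9 CPM, a log2 ratio of 2.44 (1.62 to 3.36). All 3 were also higher in WMI excitatory reference neurons, by a log2 of 1.43, 1.31 and 1.65. Mob3b, a kinase-adaptor gene, was not: its log2 ratio was 1.98 (1.26 to 2.78) in the interneuron clusters and 0.17 (-0.11 to 0.46) in excitatory neurons. The difference lay mainly in cluster 5, with 2 and 49 UMIs, and also in cluster 2, with 12 and 37 (log2 1.34, 0.37 to 2.42). Cluster 1 had 5 and 5 UMIs. Over all members the Mob3b ratio was 0.59, at 50.1 and 75.7 CPM.

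Other genes with high ratios, among them lysosomal and mitochondrial ones, had ratios of similar size in excitatory neurons. After Xist, which had 0 control and 675 WMI UMIs, the lipid carrier gene Apoe led, at 50.4 and 502 CPM in the interneuron clusters (log2 3.32, 2.87 to 3.79) and at 61.4 and 503 CPM in excitatory reference neurons (log2 3.03). The lysosomal protease gene Ctsd stood at 25.2 and 210.5 CPM in the interneuron clusters and at 25.7 and 181 CPM in excitatory neurons. Ctsb had log2 ratios of 2.08 and 1.81. The 6 microglia markers, none at 0 in either library, summed to 84.8 CPM in the control and 283 CPM in the WMI interneuron clusters and to 104 and 239 CPM in excitatory neurons. Of 7 tested mitochondrially encoded genes, 5 were at least 2-fold higher, beside 1.44% of all tested genes, with a median log2 of 1.51, while mt-Nd5 had 58 and 59 UMIs (log2 -0.25), and mt-Cytb had log2 ratios of 1.77 in the interneuron clusters and 2.03 in excitatory neurons. The part that free RNA, microglial RNA and the mitochondrial share played in these values was not tested.

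Several genes with the lowest ratios in the interneuron clusters had ratios near 0 in excitatory neurons, and for some of them the ratio was also smaller over all members. Gda, which encodes guanine deaminase, stood at 92.8 and 31.2 CPM (log2 -1.57, -2.20 to -0.97), against 0.04 (-0.03 to 0.12) in excitatory neurons. Over all members Gda stood at 87.5 and 68.8 CPM, a log2 ratio of only -0.35 (-0.69 to -0.0048). Runx2, a runt-family transcription factor gene, stood at 152 and 54.8 CPM (log2 -1.48, -1.95 to -1.02), mostly in cluster 1 with 100 and 30 UMIs, against -0.01 (-0.11 to 0.09). Lama3, a laminin chain gene with UMIs mainly in clusters 2 and 5, stood at 83.6 and 34.9 CPM (log2 -1.26, -1.87 to -0.67), against -0.14 (-0.62 to 0.34). Ano3, Rorb, Hs3st2, Sfxn5, Gcc2, Ctnna3 and Pde8b made up the rest of the 10 lowest, with log2 ratios from -1.25 to -1.01. Over all members Rorb had -0.40, Hs3st2 -0.38 and Pde8b -0.40, while Runx2 had -1.56 and Lama3 -1.31. Without the cells that held Xist, Gda had a log2 ratio of -0.62 (-1.37 to 0.08), and Runx2 and Lama3 had -1.62 (-2.42 to -0.90) and -1.92 (-3.19 to -0.87).

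**Figure D5:**
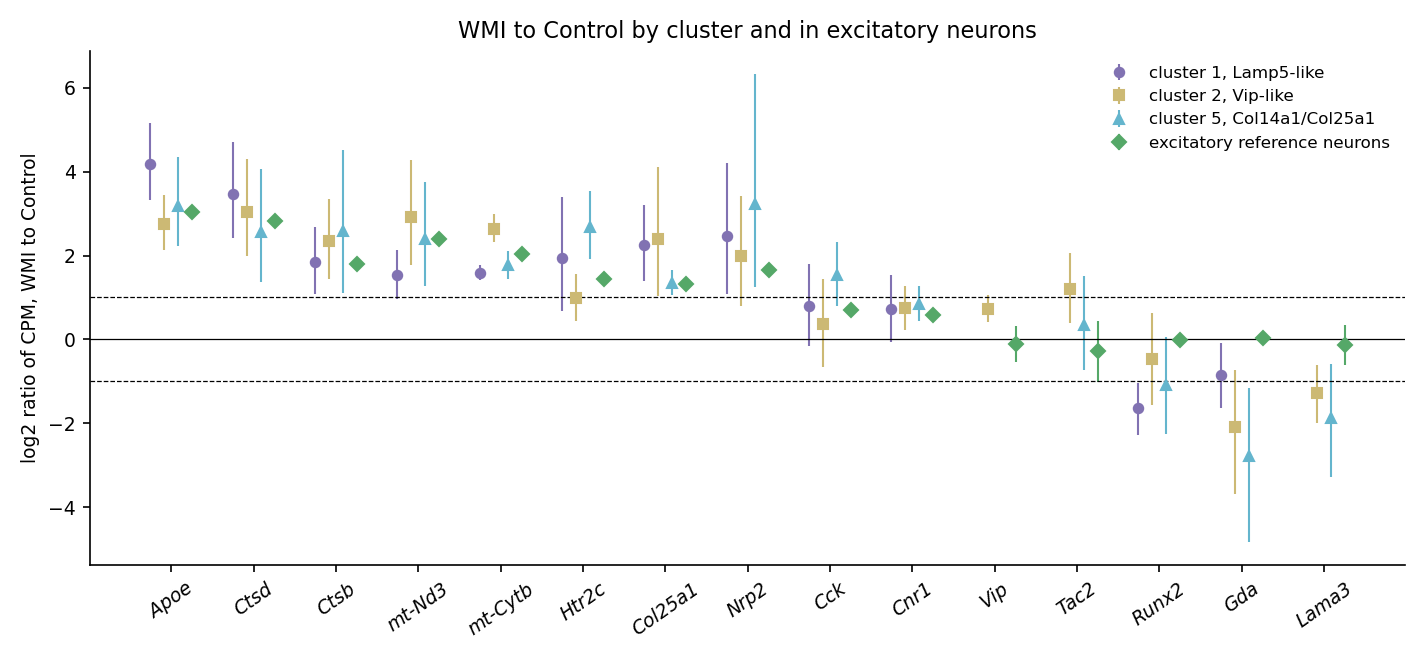
Log2 ratio of CPM, WMI to control, for 15 genes in clusters 1, 2 and 5 and in excitatory reference neurons, with 95% counting intervals as bars and dashed lines at 2-fold, for groups with at least 20 UMIs and a count in both libraries. Apoe, Ctsd, Ctsb, mt-Nd3 and mt-Cytb are above 0 in all 4 groups, and Runx2, Gda and Lama3 are below 0 in the clusters shown and near 0 in excitatory neurons.

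Over all members, the 10 highest ratios also held Spp1, Chst9, C1qa and C1qc. Spp1, the osteopontin gene, had 1 control and 125 WMI UMIs in members, and 2 and 661 UMIs in excitatory reference neurons. Chst9, a sulfotransferase gene and a leading gene of cluster 9, had 8 and 151 UMIs in members. At the other end, Gm26906 had 88 and 15 UMIs in members and was also lower in WMI excitatory neurons (log2 -2.95 in members and -2.44 there). Col24a1, a collagen gene of cluster 2, had 89 and 24 UMIs in members, and 68 and 16 within cluster 2 (log2 -2.37, -3.26 to -1.57).

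Gene groups tied to injury gave few counts in these cells. In the interneuron clusters 1 of 16 hypoxia response genes, 1 of 14 immediate-early genes, 2 of 15 cell death genes and 1 of 11 heat shock genes reached 100 UMIs, and 0 of these 5 were past 2-fold, beside 1.44% higher and 0.328% lower of all genes. Over all members 4 heat shock genes were tested and 1 was past 2-fold, beside 1.68% higher and 0.59% lower of all genes, the chaperone gene Hspa5 of the endoplasmic reticulum, at 31.8 and 70.2 CPM (log2 1.14, 0.68 to 1.63). Slc2a3, a neuronal glucose transporter gene in the hypoxia list, stood at 66.4 and 80.3 CPM (log2 0.27), and Bcl2 at 83.6 and 61.4 CPM. Of the endothelin genes that the study followed, the ligand gene Edn1 had 1 and 0 UMIs in the interneuron clusters and the receptor gene Ednrb 5 and 11 UMIs, at 5.73 and 10.4 CPM against 8.23 and 9.10 CPM in excitatory neurons. Ece1, which encodes the enzyme that processes endothelins, stood at 39.0 and 51.0 CPM.

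Of the serotonin and acetylcholine receptor genes 1 of 5 was past 2-fold, namely Htr2c. In the interneuron clusters the other lists of channel, receptor and adhesion genes had no such gene, beside a background of 1.44% higher and 0.328% lower. Over all members Cacna2d2, 1 of 16 tested sodium and calcium channel genes, was past 2-fold lower (log2 -1.08). Zfhx4, 1 of 14 tested interneuron transcription factor genes, was past 2-fold higher there (log2 1.02), beside 1.68% higher and 0.59% lower of all genes. In the interneuron clusters 0 of 10 GABA-A receptor, 0 of 16 ionotropic glutamate receptor, 0 of 12 sodium and calcium channel, 0 of 18 potassium and HCN channel, 0 of 17 synaptic adhesion and 0 of 10 interneuron transcription factor genes were past 2-fold in either direction. The medians of these lists lay between log2 -0.12 and 0.13, beside -0.03 over all tested genes. Erbb4 was 7434 and 9654 CPM (log2 0.38, 0.33 to 0.42), and in excitatory neurons -0.42 (-0.47 to -0.37). Kit was 283 and 172 CPM (log2 -0.72, 247 and 182 UMIs), and Elfn1 was 123 and 82.1 CPM (log2 -0.58, 107 and 87 UMIs). Without the cells that held Xist, Kit had -0.42 (-0.80 to -0.04) and Elfn1 -0.23 (-0.80 to 0.32).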

How the data were processed

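Droplet single-cell RNA libraries of 1 control and 1 WMI cortex sample were analysed. The deposited matrices hold UMI counts per gene and barcode, made by the authors with Cell Ranger 6.1.1 and not normalised. The submitters' processing notes name build mm9 and Seurat, but GENCODE M21 (GRCm38) held all 55450 pairs of identifier and symbol, so its coordinates were used. Kept barcodes had at least 1000 UMIs, at least 500 genes and at most 10% mitochondrial UMIs. Counts were summed per library and cell group and scaled to CPM. Shares have Clopper-Pearson intervals, levels exact Poisson intervals and ratios exact conditional binomial intervals at 95%, for counting error only. Differences of shares combine the exact limits of both shares. A gene was counted as different past 2-fold with at least 100 UMIs over both libraries, or at least 100 UMIs in the interneuron clusters for the comparisons with other cells, and a count of 0 was set to 3 counts. The intervals and the thinning were tested on simulated data.

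Members were clustered by Leiden (scanpy 1.11.5, igraph 0.11.9, 2000 variable genes centred per library, 20 components, 15 neighbours, resolution 1). A cluster was named from at least 3 fixed markers found in at least 10% of its cells at 2-fold or more over the other members, and left unnamed where another list held at least 50% of its markers. Doublets were predicted from simulated barcode sums at 0.8% per 1000 barcodes (scikit-learn 1.9.0), 785 control and 542 WMI barcodes, and kept in the main analysis. Named genes were the fixed markers and list members, the 10 highest and 10 lowest WMI to control ratios, the 15 highest ratios to Lhx6 interneurons by the lower library, and the 8 leading genes of each cluster. The ranks were also taken in the interneuron clusters, which were picked on seen values. Members and lists were chosen with earlier results of these data known. Alternatives changed each threshold of the rule, depth, doublets, scaling, minimum counts and clustering. Some genes are not reported here.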

Additional observations from a re-analysis of the deposited data

How the results depend on the processing

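Of 82 recomputed values, 67 stayed near the reported value, that is within its counting interval, 1.5 times for a number of genes, 0.1 for the median log2 ratio and 0.5 for a log2 bound. Some of the 67 could not move. Scaling by the median ratio sets the median to 0, and a minimum of 2000 UMIs removed no member, the lowest having 2022 and 2024 UMIs. Weighting each cell equally left the WMI bound of Prox1 as it was, since it rests on a count of 0. The difference in the share of members among kept barcodes (1.09 points) was 0.598 with at least 20 Adarb2 UMIs, 0.390 in the interneuron clusters and 0.448 after thinning to 3000 UMIs, which left out 2845 control and 1947 WMI barcodes. Among GABAergic barcodes (19.5 points) it was 10.7 with at least 20 Adarb2 UMIs and 6.96 in the interneuron clusters. The number of genes past 2-fold in members was 123 of 5424 tested. It was 73 of 3171 with no Slc17a7 UMI, 78 of 3808 with at least 20 Adarb2 UMIs and 54 of 3049 in the interneuron clusters. Without cells that held Xist it was 42 of 2009 there. Minimums of 50 and 400 UMIs gave 280 of 8216 and 29 of 1587. A fold of 1.5 gave 448 of 5424, and thinning gave 28 of 1342. The number of genes tested thus changed along with the number past 2-fold, except at a fold of 1.5. The lower bound of the WMI log2 ratio of Prox1 to Lhx6 interneurons (3.31) was 2.51 with no Slc17a7 UMI and 4.08 in the interneuron clusters, and thinning left no value for it. The values for at least 20 Adarb2 UMIs and for the interneuron clusters were chosen after seeing the data, and the cause of these shifts was not tested. The median log2 ratio lay between -0.03 and 0.03 and turned positive with no Slc17a7 UMI (0.0049) and with each cell weighted equally (0.025). The difference in the share in Vip-like clusters lay between -1.18 and -0.59 points. No paired analysis was possible because each group had 1 library.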

Other observations

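Cells with much Adarb2 also lay outside the rule. Of kept barcodes with at least 20 Adarb2 UMIs, 207 were in the control and 261 in the WMI library, and the rule took 117 and 148 of them. Of the others, 43 control and 36 WMI barcodes held at least 2 Gad1 and Gad2 UMIs and at least 2 of Slc17a7, 14 and 30 held 1 Gad UMI with at most 1 of Slc17a7, 14 and 25 held none with at most 1 of Slc17a7, and 9 and 3 were GABAergic with an Lhx6 UMI. In the other direction, 225 control and 217 WMI barcodes missed the rule by having 1 Gad UMI, 45 and 47 by having 2 of Slc17a7, and 26 and 5 by having 1 of Lhx6.

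Cluster 3, led by Draxin, held neuroblast and Meis2-type markers in both libraries. Meis2 stood at 5659 CPM in the control and 4589 CPM in the WMI cells, Dcx, a microtubule protein of migrating neurons, at 431 and 577 CPM, and Igfbpl1 at 208 and 237 CPM. The depth of these cells was lower, with a median of 4328 and 3772 UMIs. Prox1 had 13 and 9 UMIs in them, against 33 and 19 in interneuron cluster 1. Cluster 3 held 328603 UMIs in all and cluster 1 held 675051, so the Prox1 level of cluster 3 was near that of cluster 1.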
